A study of Mus musculus with 8 samples.

Results

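The genes described here are Mmp7, Mmp14, Mmp15, Timp1, Timp2, Timp3 and Furin, taken by name as the enzyme that processes α-defensins in mouse Paneth cells, 2 membrane-bound relatives, 3 tissue inhibitors and 1 activating convertase. These 7 genes were found, by Ensembl gene ID and GENCODE M39 symbol, among the 55414 gene IDs of the count table, and 6 of them were abundant enough to be among the 11988 genes tested. Bulk RNA-seq was performed on Paneth cells that had been purified by fluorescence sorting from the small intestine of C57BL/6J mice. Of the 8 mice, 4 received Milli-Q (ultrapure) water and 4 received this water supplemented with 25 mM ZnSO4, in each case for 7 days, and every mouse gave 1 library. All mice were of the same genotype, with no transgene or mutation named in the labels, and no age was given there.

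Paneth cells make α-defensins as inactive pro-peptides. In the mouse, matrilysin, the product of Mmp7, cuts off the pro-segment in secretory vesicles. Matrilysin is a matrix metalloproteinase (MMP), a class of enzymes that hold a zinc ion in the catalytic site and are kept silent by a pro-domain whose cysteine binds that zinc. The membrane-type enzymes encoded by Mmp14 and Mmp15 have a furin-type cleavage site behind the pro-domain and are activated inside the cell by proprotein convertases such as furin. Tissue inhibitors of metalloproteinases (TIMPs) block the active enzymes by placing their N-terminal cysteine on the catalytic zinc.

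The coding bases of the zinc-binding motif are shown for the 3 metalloproteinases because this is the part of each enzyme that holds the metal given to the mice. They were read from the canonical GENCODE M39 transcripts on GRCm39, on the plus strand, with the codons of the 3 histidines and of the catalytic glutamate in capitals.
Mmp7 (chr9:7697615-7697647): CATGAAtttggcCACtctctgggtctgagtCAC
Mmp14 (chr14:54675084-54675116): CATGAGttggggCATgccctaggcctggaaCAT
Mmp15 (chr8:96095213-96095245): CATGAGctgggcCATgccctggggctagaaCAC
Each motif lay in a single coding exon. Mmp14 and Mmp15 shared 27 of these 33 bases, while Mmp7 shared 21 with Mmp14 and 22 with Mmp15. The cysteine switch of the pro-domain was found once in each of the 3 proteins. A furin-type site (an arginine, any residue, a lysine or arginine, then an arginine) was found 0 times in Mmp7, 1 time in Mmp14 and 4 times in Mmp15. The Mmp15 matches started at residues 122, 124, 184 and 316, and those at 122 and 124 overlapped. Which of them is cut was not tested. The first match behind the cysteine switch is shown for Mmp14 and Mmp15, with its outer arginine codons in capitals.
Mmp14 (chr14:54673659-54673670): CGGaggaagCGC
Mmp15 (chr8:96092986-96092997): CGTcgacggCGG

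Library totals lay between 20760764 and 24117111 counts. All 11 Paneth cell markers had at least 10 counts in every library, and together they took 37.6 to 48.4% of the counts. Goblet cell markers took 0.342 to 0.931%, crypt stem cell markers 0.368 to 0.772% and enterocyte markers 0.0179 to 0.0316%. Enteroendocrine and tuft cell markers each took at most 0.0112%. Of 8 fibroblast markers, 5 were at 0 in every library, including Col1a1, Col1a2 and Dcn, and the whole list took at most 0.000176% of the counts. Leukocyte markers took at most 0.000255% and endothelial markers at most 0.0000787%. Levels are given in CPM, that is counts brought to the same library size with TMM factors, which set the libraries to a common level over the bulk of the genes, and in CPM per kb of merged exon where genes are compared with each other. Values of single libraries follow the order of replicates 1 to 4.

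The members differed widely in level. Mmp7 stood at a mean of 5056 CPM per kb over the 8 libraries and ranked 16th of all gene IDs on this scale, 418 times above Mmp15, which came next at 12.1 CPM per kb. Furin followed at 4.42 and Mmp14 at 4.36 CPM per kb, and these neighbours were not separated, since their libraries ran from 3.82 to 5.31 and from 3.08 to 5.74. Timp2 stood at 0.538 CPM per kb and Timp3 at 0.251 CPM per kb, with overlapping ranges of 0.350 to 1.20 and 0.103 to 0.414. Timp1 was last at 0.0274 CPM per kb, with a highest library of 0.176. No library of Mmp15 (9.73 to 16.0 CPM per kb) overlapped with Furin or Mmp14, and no library of Furin or Mmp14 overlapped with the inhibitors.

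**Figure D1:**
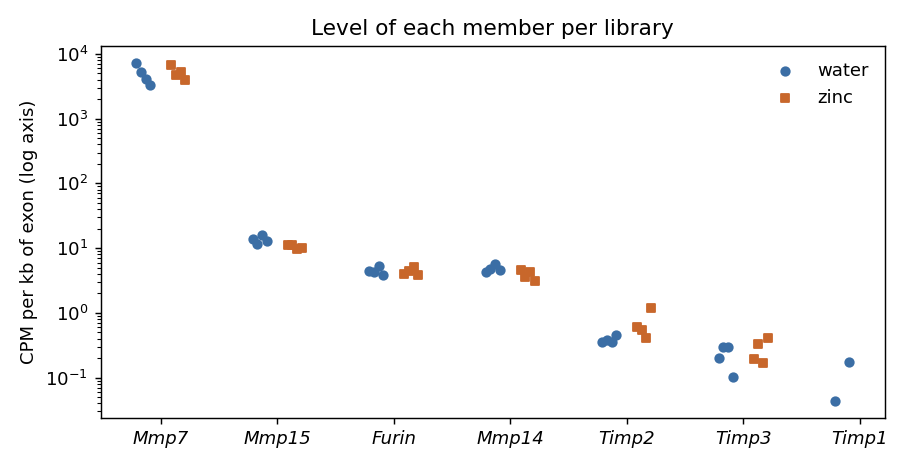
Level of each member in CPM per kb of merged exon (log axis) for the 4 water libraries (circles) and the 4 zinc libraries (squares). Mmp7 lies between 3357 and 7290, all other members lie at 16.0 or below, and the 6 libraries in which Timp1 was at 0 are not drawn.

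The first question was whether zinc changed the transcript of the processing enzyme itself, whose activity and secretion RNA levels do not measure. Mmp7 (ENSMUSG00000018623, GRCm39 chromosome 9, 7692091 to 7699587, plus strand with 6 merged exons) had 141494, 147416, 115737 and 106707 counts with water, against 136209, 118937, 161435 and 122196 counts with zinc. On the TMM scale these were 8850, 6333, 4896 and 4075 CPM with water and 8088, 5742, 6378 and 4739 CPM with zinc. The 4 zinc libraries lay inside the range of the water libraries. The mean was 6038 ± 2094 CPM with water as against 6237 ± 1407 CPM with zinc (SD, n = 4 each), and the log2 fold change was 0.05 (SE 0.25, adjusted p = 0.998 by edgeR). The 95% interval of this fold change ran from -0.49 to 0.58 on the log2 scale. Its sign depended on single libraries: it was -0.05 without water replicate 3, -0.11 without water replicate 4 and -0.11 without zinc replicate 1, and it was 0.29 without water replicate 1.

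The spread of Mmp7 between mice was larger than its difference between the groups. The highest library stood 2.17 times above the lowest with water and 1.71 times with zinc. In each group the highest library was replicate 1, which also had the lowest TMM factor (0.764 with water and 0.775 with zinc, against 0.998 to 1.23 in the other libraries). Expressed as a share of all counts, which uses no such factor, Mmp7 took 0.675, 0.644, 0.521 and 0.494% with water and 0.626, 0.573, 0.669 and 0.580% with zinc. By the Wilson method the 95% interval was 0.672 to 0.679% for the highest share and 0.491 to 0.497% for the lowest, and counting error was far below the spread between mice. With water Mmp7 averaged 0.584% ± 0.0894 of the counts, as against 0.612% ± 0.0449 with zinc (SD, n = 4 each), a difference of 0.0285 percentage points (exact two-sided permutation p = 0.571). Without water replicate 4 this difference was -0.00141 points. In bulk samples of this kind, fewer cells of a type and less RNA per cell cannot be told apart.

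The second question was how Mmp7 stood against the transcripts of its substrates. The 28 coding Defa genes encode the α-defensin precursors, and Defa24, the most abundant of them, had between 2916960 and 4271971 counts per library. For every 1000 coding Defa counts there were 16.9, 19.0, 15.7 and 16.9 Mmp7 counts with water and 16.3, 16.9, 20.2 and 20.8 with zinc. Zinc replicates 3 and 4 lay above all water libraries and zinc replicates 1 and 2 lay within their range. The mean was 17.1 ± 1.36 with water as against 18.5 ± 2.31 with zinc (SD, n = 4 each), and the difference of 1.40 was not larger than expected from the spread of the mice (two-sided exact permutation p = 0.314). The difference was 2.16 without zinc replicate 1 and 0.633 without zinc replicate 4. Per kb of exon, there were 6.68 ± 0.534 Mmp7 transcripts for every 1000 Defa transcripts with water as against 7.24 ± 0.934 with zinc (SD, n = 4 each). Reads shared between near-identical Defa copies may have been split or dropped in counting, so the absolute ratio is uncertain.

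**Figure D2:**
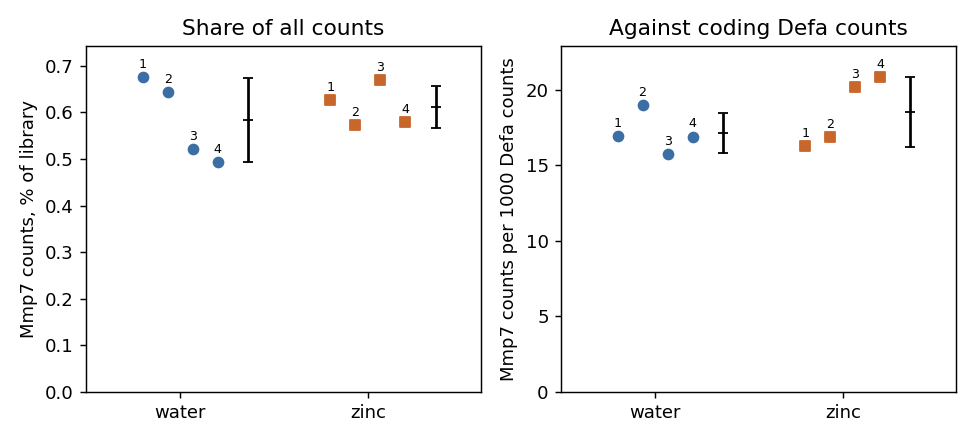
Mmp7 counts as a percentage of all counts (left) and per 1000 coding Defa counts (right) in each library, labelled by replicate number, with the mean and SD of each group of 4 as a bar. The groups overlap in each panel, with zinc shares between 0.573 and 0.669% inside the water range of 0.494 to 0.675%.

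The next question was whether the membrane-type enzymes differed. Mmp15 (ENSMUSG00000031790, chromosome 8, 96078895 to 96101708, 10 merged exons on the plus strand) encodes MT2-MMP and stood at 75.9, 62.3, 86.4 and 68.9 CPM with water. With zinc it stood at 61.3, 61.2, 52.5 and 54.5 CPM. On this TMM scale all 4 zinc libraries lay below all 4 water libraries, although zinc replicate 1 and water replicate 2 were only just apart. Without TMM factors the groups overlapped. Zinc replicate 4 had 1405 Mmp15 counts of 21061178, a larger share than the 1213 of 20949548 in water replicate 1. Mmp15 averaged 73.4 ± 10.3 CPM with water as against 57.4 ± 4.55 CPM with zinc (SD, n = 4 each). The log2 fold change was -0.35 (SE 0.12, 95% interval -0.61 to -0.10). The edgeR p was below 0.05 before adjustment, but the adjusted p was 0.852, so Mmp15 did not pass the threshold of 0.05 over all genes. With library totals as the only scaling the unadjusted edgeR p was no longer below 0.05 (log2 fold change -0.37). Its log2 fold change lay between -0.43 and -0.27 in the 8 fits that left out 1 library, and its unadjusted edgeR p stayed below 0.05 in 8 of these 8 fits.

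Mmp14 (ENSMUSG00000000957, chromosome 14, 54668878 to 54682821, plus strand with 11 merged exons) encodes MT1-MMP, the membrane-type enzyme that activates pro-MMP2. It stood at 26.4, 29.0, 35.4 and 28.0 CPM with water and at 28.0, 22.5, 26.7 and 19.0 CPM with zinc. The groups overlapped, with 2 of the 4 zinc libraries below all water libraries. The means were 29.7 ± 3.96 and 24.0 ± 4.09 CPM (SD, n = 4 each), and the log2 fold change was -0.31 (SE 0.14, 95% interval -0.61 to -0.01, edgeR adjusted p = 0.998), with p below 0.05 before adjustment only. In the fits that left out 1 library the log2 fold change ran from -0.39 to -0.22 and the unadjusted edgeR p was below 0.05 in 4 of 8. With library totals as the only scaling the log2 fold change of Mmp14 was -0.35 and its unadjusted edgeR p was 0.14. The 6 crypt stem cell markers together took 0.368, 0.559, 0.602 and 0.772% of counts with water and 0.388, 0.435, 0.420 and 0.439% with zinc, so that 3 of the 4 water libraries lay above every zinc library. Olfm4, which had most of the counts of these markers, was at a log2 fold change of -0.48 (SE 0.19) with edgeR p below 0.05 before adjustment only. Ascl2 was at -0.24 (SE 0.14). Lgr5, Slc12a2 and Axin2 were near 0, at -0.02 (SE 0.16), -0.04 (SE 0.14) and -0.08 (SE 0.14), and Smoc2 was at 0.06 (SE 0.13). The summed share thus mainly follows Olfm4. The part of crypt stem cell RNA in the values of Mmp14 and Mmp15, which were lower on average with zinc, was not tested.

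Furin (ENSMUSG00000030530, chromosome 7, 80038333 to 80055184, minus strand with 12 merged exons) encodes the convertase that cleaves at paired basic residues in the trans-Golgi network. It stood at 46.2, 43.7, 54.5 and 39.7 CPM with water and at 41.0, 46.4, 52.4 and 39.2 CPM with zinc. The groups overlapped almost fully, with the highest value in replicate 3 and the lowest in replicate 4 of each group. The means were 46.0 ± 6.26 and 44.8 ± 5.94 CPM (SD, n = 4 each), and the log2 fold change was -0.04 (SE 0.13, adjusted p = 0.998 by edgeR), with a 95% interval from -0.31 to 0.23. The sign turned to 0.05 without water replicate 3 and to 0.02 without zinc replicate 4.

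**Figure D3:**
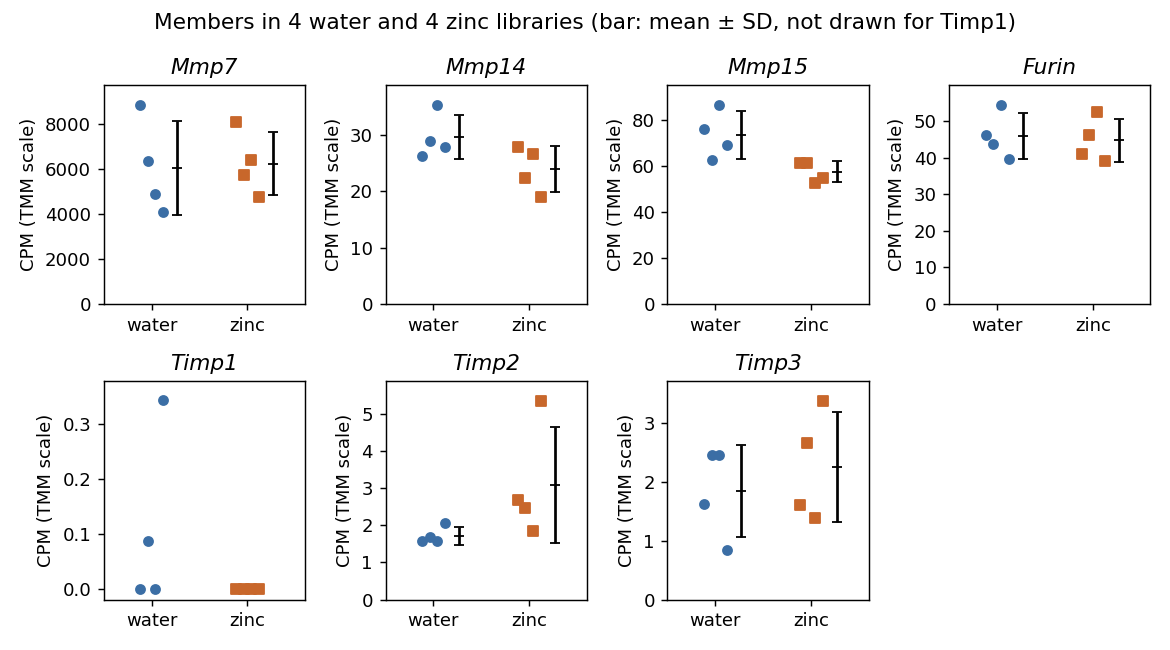
CPM (TMM scale) of the 7 members in the 4 water libraries (circles) and 4 zinc libraries (squares), each panel on its own linear axis, with the mean and SD of each group as a bar except for Timp1. For Mmp15 the zinc libraries (52.5 to 61.3 CPM) lie below the water libraries (62.3 to 86.4 CPM), and for Timp2 zinc replicate 4 stands at 5.35 CPM.

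The inhibitors were rare in these cells. The start of each mature TIMP is shown because its first residue, a cysteine, is the one that meets the enzyme's zinc. The coding bases are from the canonical GENCODE M39 transcripts on GRCm39, read 5′ to 3′ on the coding strand, with the codons of the first 2 cysteines in capitals.
Timp1 (chrX:20737350-20737376, plus strand): TGTagcTGTgccccaccccacccacag
Timp2 (chr11:118245812-118245838, minus strand): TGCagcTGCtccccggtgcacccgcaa
Timp3 (chr10:86136787-86136813, plus strand): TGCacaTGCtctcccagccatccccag
Of these 27 bases, 18 were the same in Timp1 and Timp2, 16 in Timp1 and Timp3, and 17 in Timp2 and Timp3.

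Timp2 (ENSMUSG00000017466, chromosome 11, 118191887 to 118246566, minus strand with 9 merged exons), whose product also takes part in the activation of pro-MMP2 by MT1-MMP, had 25, 39, 37 and 54 counts with water. It had 45, 51, 47 and 138 counts with zinc. On the TMM scale this gave 1.56, 1.68, 1.57 and 2.06 CPM with water and 2.67, 2.46, 1.86 and 5.35 CPM with zinc. Of the 4 zinc libraries, 3 lay above all water libraries, and zinc replicate 4 stood well above the rest. The means were 1.72 ± 0.236 and 3.09 ± 1.55 CPM (SD, n = 4 each), and the log2 fold change was 0.84 (SE 0.34, 95% interval 0.12 to 1.57, edgeR adjusted p = 0.998), with p below 0.05 before adjustment only. In the fits that left out 1 library the log2 fold change ran from 0.42 to 1.02 and the unadjusted edgeR p was below 0.05 in 6 of 8. The exceptions were the fits without zinc replicate 4 (log2 fold change 0.42) and without water replicate 3 (log2 fold change 0.79). With limma-voom the log2 fold change was 0.74, and the unadjusted limma-voom p was only just above 0.05. Of the merged exon bases of Timp2, 7.44% overlapped with the same-strand gene Cep295nl, which had 0 counts in every library. How reads in this overlap were counted is not known. Zinc replicate 4 also held the largest share of goblet cell markers, at 0.931% of counts against 0.342 to 0.466% in the other zinc libraries. Water replicate 4 had the highest Timp2 value and the highest goblet share (0.636%) of its group, and the water libraries had the same order in both. The zinc libraries did not. Zinc replicate 1 had the lowest goblet share of all libraries (0.342%) and a Timp2 value below that of zinc replicate 4 only. Zinc replicates 1 to 3 each had a higher Timp2 value than water replicate 2, whose goblet share was larger (0.522%). The part of goblet cell RNA in the Timp2 values was not tested. Of the 8 fibroblast markers, 5 were at 0 in every library (Col1a1, Col1a2, Dcn, Lum and Pdgfra), while Pdgfrb had 10, 21, 5 and 22 counts with water and 4, 21, 11 and 32 with zinc, Sparc had up to 15 and Col3a1 up to 5. The summed fibroblast share ran from 0.0000225 to 0.000157% of counts with water and from 0.0000581 to 0.000176% with zinc, with the highest value in zinc replicate 4, and its part in the Timp2 values was not tested either.

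Timp3 (ENSMUSG00000020044, chromosome 10, 86136236 to 86185371, plus strand with 8 merged exons) encodes the inhibitor that binds to the extracellular matrix. It had 26, 57, 58 and 22 counts with water, against 27, 55, 35 and 87 counts with zinc, or 0.840 to 2.45 CPM with water and 1.38 to 3.37 CPM with zinc. The groups overlapped, and replicate 4 was the lowest library with water and the highest with zinc. The means were 1.84 ± 0.773 and 2.25 ± 0.931 CPM (SD, n = 4 each), and the log2 fold change was 0.30 (SE 0.39, 95% interval -0.53 to 1.13, edgeR adjusted p = 0.998). The log2 fold change was 0.043 without water replicate 4, 0.024 without zinc replicate 4 and 0.47 without zinc replicate 3, and over all fits that left out 1 library it ran from 0.024 to 0.47. Without both libraries numbered 4, a setting chosen after seeing the data, it was -0.22. Of the merged exon bases of Timp3, 21.3% overlapped with the antisense gene Syn3, which had 4 to 31 counts per library, and reads of these genes cannot be told apart if counting ignored strand.

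Timp1 (ENSMUSG00000001131, chromosome X, 20736316 to 20740976, plus strand with 5 merged exons), an inhibitor that many cells induce in inflammation, had 0, 2, 0 and 9 counts with water and 0 counts in each zinc library. It was too rare to pass the low-count filter of the edgeR fit. At 0 counts a level of up to 3 counts is still possible, which is 0.115 to 0.188 CPM in these libraries, so that only water replicate 4 (0.344 CPM) stood above this limit.

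**Figure D4:**
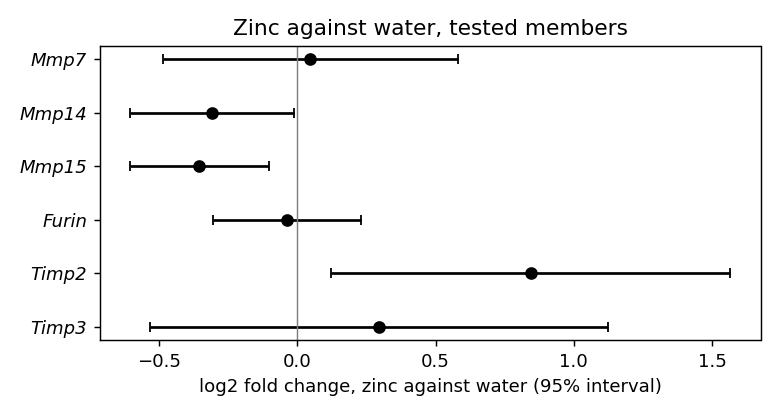
Log2 fold change of zinc against water for the 6 tested members (points) with its 95% interval from the edgeR fit (bars), and a line at 0. The intervals of Mmp15 (-0.61 to -0.10), Mmp14 and Timp2 lie to 1 side of 0, and those of Mmp7, Furin and Timp3 include it.

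Over the whole fit, 0 of the 6 tested members passed the edgeR threshold, as against 0.0834% of all tested genes, and the smallest adjusted p among them was 0.852 (Mmp15). DESeq2 and limma-voom also called 0 of them. At an unadjusted edgeR p below 0.05 there were 3 of 6 members (Mmp14, Mmp15 and Timp2), while 4.65% of all tested genes were at this level. In CPM on the TMM scale the groups of libraries did not overlap for 1 of the 6 members (Mmp15), and for 2.84% of all tested genes. Of the 6 fold changes, 3 were below and 3 above 0, with a median of 0.00 on the log2 scale (0.01 over all tested genes). These members were chosen with earlier results of the same libraries known, and 6 genes are too few for these shares to be read as more than a description.

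The level of the membrane-type enzymes against that of the inhibitors was taken as the sum of Mmp14 and Mmp15 over the sum of Timp1, Timp2 and Timp3, all in CPM per kb. This ratio was 33.3, 22.6, 33.4 and 23.3 with water and 19.97, 17.1, 23.99 and 8.17 with zinc. The lowest value belonged to zinc replicate 4, the library with the highest Timp2. The groups overlapped, since zinc replicate 3 lay above water replicates 2 and 4. The mean was 28.2 ± 6.01 with water as against 17.3 ± 6.72 with zinc (SD, n = 4 each). As the ratio is built from the members' own values, no test was made on it.

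**Figure D5:**
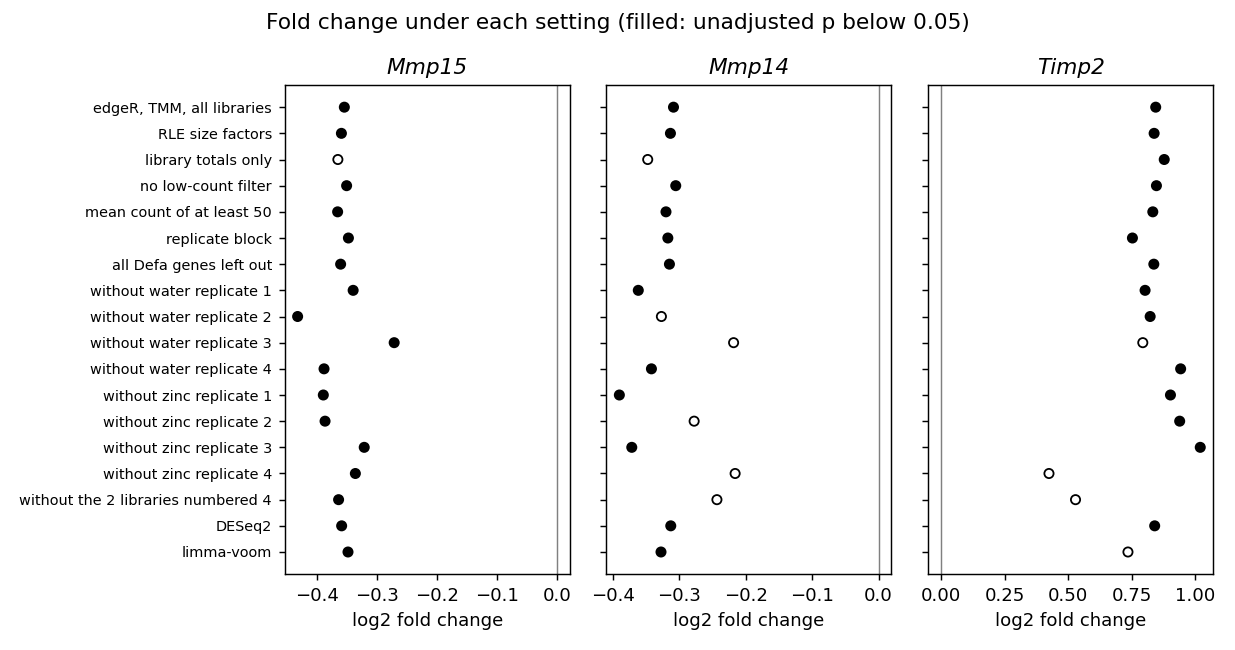
Log2 fold change (zinc against water) of Mmp15, Mmp14 and Timp2 in the edgeR fit of all libraries and under each of 17 other settings, filled where the unadjusted p was below 0.05. Mmp15 stays between -0.43 and -0.27, Mmp14 between -0.39 and -0.22, and Timp2 ranges from 0.42 to 1.02.

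Other genes of the same proteolytic network were read from the same fit. Of 20 other MMP genes, 12 were at 0 in every library, among them Mmp2, and 2 were tested. Mmp28, which encodes epilysin, differed by a log2 fold change of -0.18 (SE 0.26) and Mmp20, which encodes the enamel protease enamelysin, 0.09 (SE 0.23). Neither passed the edgeR threshold (adjusted p = 0.998 for each). Of 6 other genes listed with the inhibitors, 3 were at 0 in every library and 1, Spock2, was tested. It did not pass (log2 fold change 1.15, SE 0.47, adjusted p = 0.998 by edgeR). Without zinc replicate 3 it did pass (log2 fold change 1.49, adjusted p = 0.0262 by edgeR). Of 8 other proprotein convertase genes, 6 were tested and 0 passed, with log2 fold changes from -0.47 to 0.10. The most abundant were Mbtps1, which encodes the site-1 protease, at 5.75 CPM per kb and Pcsk7 at 4.72 CPM per kb, close to Furin at 4.42 CPM per kb. Their log2 fold changes were 0.04 (SE 0.11) and -0.03 (SE 0.14). The gene of this list with the smallest p was Pcsk4, at 4 to 21 counts per library (log2 fold change -0.47, SE 0.60, adjusted p = 0.998 by edgeR).

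Of 13 ADAM and ADAMTS genes, 4 were tested and 0 passed. Adam9 stood at 11.5 and Adam10, which encodes a sheddase of Notch receptors, at 9.87 CPM per kb, near the level of Mmp15, with log2 fold changes of -0.16 (SE 0.11) and 0.11 (SE 0.11). Of 10 meprins and other cell surface metalloproteases, 7 were tested and 0 passed. Anpep, the aminopeptidase N gene, was the most abundant at 67.5 CPM per kb (log2 fold change -0.09, SE 0.15), followed by Ece1, the gene of endothelin-converting enzyme 1, at 4.56 CPM per kb (log2 fold change -0.01, SE 0.13). Enpep, the aminopeptidase A gene, had the smallest p of this list, at 1, 4, 13 and 42 counts with water and 18, 32, 43 and 75 counts with zinc (log2 fold change 1.53, SE 0.65, adjusted p = 0.998 by edgeR). The median log2 fold change of the 7 genes was -0.09, against 0.01 over all tested genes.

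Human Paneth cells process their α-defensins with trypsin instead of matrilysin. In these mouse libraries all 9 listed trypsin and enteropeptidase genes were at 0 in every library, which allows up to 0.188 CPM for each in the library with the smallest scaled total. The trypsin genes are near-identical copies, so reads dropped for matching several of them would also leave counts of 0. Of the 11 matched serine protease inhibitor genes, 6 were tested and 0 passed. Spink4, a Kazal-type inhibitor gene, was more abundant than Mmp7 at 9776 CPM per kb, with 6446 ± 2261 CPM with water as against 7474 ± 1771 CPM with zinc (SD, n = 4 each, log2 fold change 0.21, SE 0.26, adjusted p = 0.998 by edgeR). Spint2, which encodes an inhibitor of membrane serine proteases, stood at 133 CPM per kb with a log2 fold change of 0.00 (SE 0.15), and Serpina1b, with the smallest p of the list, had a log2 fold change of 0.91 (SE 0.88, adjusted p = 0.998 by edgeR) and its highest count, 226, in zinc replicate 4.

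The genes whose pattern over the 8 libraries lay nearest to that of Mmp7 were sought among 646 other genes with a mean of at least 100 CPM, by the root mean square difference of centred log2 CPM. They were Guca2b, which encodes uroguanylin, at a difference of 0.0707, the chemokine gene Ccl6 at 0.0737, and Tmed6, of a family of cargo receptors in the early secretory pathway, at 0.0809. The median difference over the 646 genes was 0.354. All values share the library scaling factors described above.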

How the data were processed

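Total RNA of sorted Paneth cells was made into libraries with a stranded mRNA kit (1 library per mouse, 4 mice per group). The authors deposited 1 table of raw read counts per Ensembl gene ID, with no normalization. The submitters' processing notes name FastQC 0.12.0, STAR 2.7.0a, DESeq2 and the build mm39 (GRCm39), while the study's methods name another STAR release. For the counting program and its strand setting, the sources used here give no name. GENCODE M39 on GRCm39 supplied symbols (54749 of 55414 IDs matched), coordinates, merged exon lengths and coding sequences.

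Differences between zinc and water were fitted with edgeR 4.0.16 under R 4.3.3 (filterByExpr with a minimum count of 10, TMM, robust quasi-likelihood F test, treatment only), adjusted by Benjamini-Hochberg over all 11988 genes with a threshold of 0.05. SE is the size of the log2 fold change divided by the root of F. The Mmp7 share and the Mmp7 to Defa ratio were compared by exact permutation tests, which run over 70 assignments of 4 against 4 libraries and cannot go below p = 0.0286. Intervals of shares are Wilson intervals, and with no molecular identifiers they and the limit of 3 counts cover counting error only. Alternatives used DESeq2 1.42.0 and limma 3.58.1, other scalings and filters, and each library left out. The procedure was tested on simulated data. Python 3.11.15 was used for shares and figures.

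The members and gene lists were chosen with earlier results of these data known. Named genes were all members, of each related list those past the threshold or otherwise the gene with the smallest p, its 2 most abundant genes, the most abundant Defa gene and the 3 genes nearest to Mmp7. Spink3 of the inhibitor list had no matching symbol. The name and values of 1 other gene of the related lists are not reported here.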

Additional observations from a re-analysis of the deposited data

How the results depend on the processing

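In the 17 alternatives run, 0 members passed the threshold. Over all genes the edgeR fit called 3 higher and 7 lower with zinc. Without a low-count filter this was 11 and 55, with 2 genes of the related lists (Spock2 among them) where the fit with the filter had 0, and DESeq2 gave 8 and 28. With 1 library left out, 0 to 5 genes were higher, 1 to 12 lower, and 0 to 1 of the related lists passed (Spock2, without zinc replicate 3). The higher count was 1 without water replicate 1, 0 without water replicate 2 and 5 without zinc replicate 1. The lower count was 1 without water replicate 2, 2 without water replicate 3, 1 without zinc replicate 2 and 12 without zinc replicate 4. The cause was not tested.

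Signs turned for Mmp7 (log2 fold change -0.045, -0.11 and -0.11 without water replicate 3, water replicate 4 and zinc replicate 1, range -0.11 to 0.29 over the left-out libraries), for Furin (0.049 without water replicate 3 and 0.015 without zinc replicate 4, range -0.13 to 0.049) and for Timp3 (-0.22 without both libraries numbered 4, a setting chosen after seeing the data). Left-out libraries moved the Mmp7 share difference from -0.00141 to 0.0591 points and the ratio difference from 0.633 to 2.16 per 1000 Defa counts. Mmp14, Mmp15 and Timp2 kept their sign in all 17 alternatives. Timp3 was not covered by the filter at a mean count of 50. Timp1 entered only the fit without a low-count filter and the DESeq2 fit, and its values there are not given.

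The labels tie the replicate numbers to no shared batch or day, and pairing was to be assumed only if all 4 same-numbered pairs correlated above 0.1 in their deviations from the group means. Of these pairs 3 did (highest 0.263) and 1 did not (0.0001), so the block was kept as an alternative. In 3 of the 4 numbers each library correlated best with its own number. The TMM factors also had the same order in each group, at 0.764, 1.02, 1.07 and 1.21 with water and 0.775, 0.998, 1.05 and 1.225 with zinc. Whether a number marks something shared was not tested, and the fit without a block leaves any such part in the spread between mice. With the replicate block edgeR called 6 higher and 26 lower genes and 0 members. Its unadjusted p was 0.462 for Mmp7, 0.0154 for Mmp14 and 0.00353 for Mmp15. For Timp2, Timp3 and Furin it was 0.0267, 0.484 and 0.689. The smallest adjusted p of the members was 0.336 (Mmp15). With the block the sign-permutation p was 0.625 for the Mmp7 share and 0.50 for the ratio. Depth limits Timp1, and also Timp2 and Timp3 at 22 to 138 counts per library.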

Other observations

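Mmp20, the enamelysin gene, had 417 to 734 counts in every library of these intestinal cells. It lies 17110 bases upstream of Mmp7 on the same strand (GRCm39 chromosome 9, 7628232 to 7674980). For every 1000 Mmp7 counts there were 3.65, 3.68, 6.34 and 3.91 Mmp20 counts with water (replicates 1 to 4 in order) and 4.51, 4.17, 4.50 and 4.28 with zinc. AV064505, an antisense gene that overlaps with 10.1% of the merged exon bases of Mmp7, had 17 to 40 counts per library. Where the Mmp20 reads lie along the gene cannot be seen in a table of counts.

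Spock2, which encodes a proteoglycan of the testican family and was listed with the inhibitors, stood at 3.07, 3.22, 2.41 and 3.48 CPM with water and at 9.03, 9.80, 1.42 and 6.94 CPM with zinc. Of the zinc libraries, 3 lay above all water libraries and replicate 3 lay below them (log2 fold change 1.15, SE 0.47, edgeR adjusted p = 0.998). Without zinc replicate 3 its log2 fold change was 1.49, with an edgeR adjusted p of 0.0262, and over all the alternatives its adjusted p ran from 0.00996 (edgeR without a low-count filter) to 1.0. What the Spock2 product does to these enzymes was not measured. Reck, the next gene of that list, had 0 to 2 counts per library.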
